A study of Mus musculus with 12 samples.

Results

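The cytosolic ribosomal protein genes were taken by name from the deposited expression tables: rows called Rpsa, Rplp0, Rplp1 or Rplp2, or beginning with Rps or Rpl and a digit, without names holding -ps and without the Rps6k kinases. The rule found 86 of the 15767 genes. They are 43 genes of the large subunit, 31 of the small subunit, 3 of the P stalk, 8 paralogs or retrogenes, and Rps19bp1, which encodes a protein that binds Rps19 and is no part of the ribosome. The first 3 classes, 77 genes, are called core genes below. The rule left out 5 rows named as pseudogenes and 10 Rps6k rows.

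RNA was sequenced from Neuro-2a, an established mouse neuroblastoma cell line of wild-type genotype, in 12 libraries. The 3 groups of 4 libraries, numbered 1 to 4, received a control small RNA (miR-Control), a mimic of the microRNA miR-155, which is designed to add its activity, or an inhibitor of it. Every group was transfected with the reagent RNA Fit in medium lacking serum and antibiotics, which was changed to complete medium at 4 h, and cells were kept to day 2. The labels name neither separate cultures nor what the replicate number stands for, so replicate spread, and with it each p-value, may be of technical origin alone.

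Ribosomal proteins are made in near-equal numbers for each ribosome and assembled with ribosomal RNA in the nucleolus into a small subunit, which reads the mRNA, and a large subunit, which joins amino acids. Their mRNAs typically begin with a cytosine and a run of pyrimidines, the TOP motif, through which the mTOR kinase and the protein Larp1 control their translation. Because that control acts on translation, a level of mRNA does not report how much ribosomal protein is made. Ribosomal protein genes also have many processed copies elsewhere in the genome, some of them annotated as genes.

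The seed of miR-155-5p, its bases 2 to 8, pairs with target mRNAs and is given in capitals, since few of these genes have a match to it.
miR-155-5p: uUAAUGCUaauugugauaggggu
Sites were searched on the mRNA strand as AGCATTAA (8mer), AGCATTA (7mer-m8), GCATTAA (7mer-A1) and GCATTA (6mer), each gene counted once under the longest type. In the longest annotated 3′ UTR of each gene, 78 of the 86 genes (90.7%) had none of the 4, against 80.0% of 15419 genes of the table. Their 3′ UTRs were short, with a median of 166.5 bases against 1066. An 8mer was found in 2 of the 86 genes (2.33%) and in 3.02% of all genes. A match is a description of the letters only.

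The 2 genes with an 8mer were Rpl21, of the large subunit, at base 1053 of a 3′ UTR of 1079 bases, and Rps20, of the small subunit, at base 197 of 3167. The windows below lie on the + strand of chr5:146836998-146837021 and the - strand of chr4:3834289-3834312 (GRCm38), with the match in capitals.
Rpl21: attctgttAGCATTAAatgcactg
Rps20: agtactgaAGCATTAAactgcttt
A 7mer-m8 stood in Rpl5, which reaches the large subunit together with 5S ribosomal RNA, and in Rps9 and Rps19 of the small subunit. Rpl12 held a 7mer-A1, and Rpl15 and Rps24 a 6mer. For the 8 genes, differences between mimic and control on the log2 scale ran from -0.12 for Rpl12 to 0.12 for Rps24. Those of the 8mer genes were 0.07 for Rpl21 and -0.03 for Rps20. Between inhibitor and control the same 2 genes differed by 0.08 and 0.04, and none of the 8 passed the test in either comparison.

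The annotated start sites were read for the TOP motif, searched as a C followed by at least 4 more pyrimidines, the C lying within 5 bases of the RefSeq start. The windows below run from 10 bases before the start to 19 after it (GRCm38.p6, RefSeq), with the run in capitals, and show clear cases and 1 retrogene beside its parent.
Rps6: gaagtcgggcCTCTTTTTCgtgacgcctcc
Rpl15: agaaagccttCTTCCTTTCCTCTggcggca
Rplp2: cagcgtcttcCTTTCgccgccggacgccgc
Rps18: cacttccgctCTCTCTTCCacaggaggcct
Rps27: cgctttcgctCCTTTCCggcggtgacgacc
Rps27rt: ttatcccttgCTTTCCggcggtgacgacct
Rpl22l1: gcgcaagcccgttCTCTTCCCacggctgca
Their positions are chr4:86857348-86857377 (- strand), chr14:18270967-18270996 (-), chr7:141447641-141447670 (+), chr17:33955646-33955675 (-), chr3:90213629-90213658 (-), chr9:114982720-114982749 (-) and chr3:28805498-28805527 (+). Rps6 is the small-subunit protein that the S6 kinases phosphorylate. Rps27 and Rps27rt share the letters that follow the run, while those before it differ.

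A TOP-like start was found in 26 of the 57 core genes with a RefSeq entry (45.6%), against 20.0% of 12120 genes of the table. With a run of at least 7 pyrimidines the shares were 35.1% and 6.75%. Allowing 10 bases around the start gave 54.4% and 32.2%, and 25 bases gave 80.7% and 55.8%. In all, 66 of the 86 genes had an entry.

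Total counts per library ran from 60695388 to 74200532. Of 15 neuroblastoma and sympathetic neuron markers, Hand2, a transcription factor of sympathetic neurons, had a median of 1815 TPM (counts scaled by gene length and by library) and Chgb, a protein of secretory granules, 2853 TPM, while Th, the enzyme of catecholamine synthesis, had a median of 1.08 TPM. Summed over each list, fibroblast, glial, and immune and endothelial markers stayed between 3.14 and 9.90 TPM in every library, and the medians of Col1a2, Sox10, S100b, Ptprc, Csf1r and Cdh5 were 0.

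Together the 86 genes took 6.77% to 7.78% of the summed TPM and 3.02% to 3.68% of the counts of a library. In the control libraries 1 to 4 the share of TPM was 7.09%, 7.78%, 7.61% and 6.77%. In the mimic libraries it was 6.99%, 7.36%, 7.36% and 7.03%, and in the inhibitor libraries 7.58%, 7.21%, 7.57% and 6.99%. The control group thus held both the highest and the lowest library, and the 3 groups overlapped. Group means were 7.31% ± 0.464 for control, 7.18% ± 0.203 for mimic and 7.34% ± 0.288 for inhibitor (SD, n = 4), so their differences were smaller than the spread within groups. In bulk RNA, fewer cells of a type and less RNA per cell cannot be told apart.

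**Figure D1:**
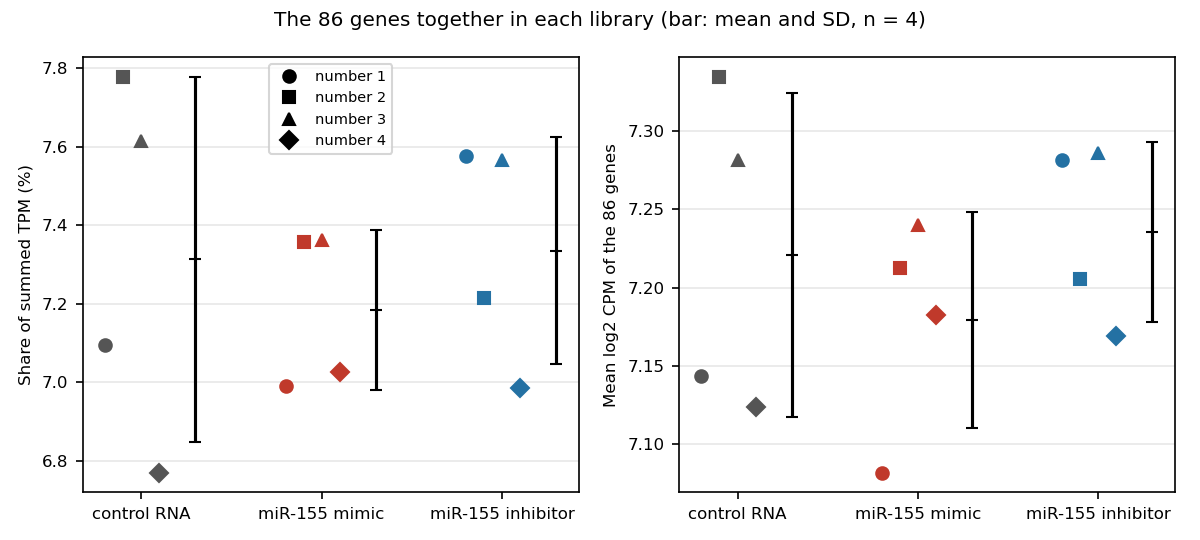
Left, share of the summed TPM (%), and right, mean log2 CPM (counts scaled by library size) of the 86 genes, in each library by treatment, with symbols for the replicate number and a bar for mean and SD (n = 4). Control 2 lies highest in both panels, control 4 has the lowest share of TPM (6.77%), and mimic 1 the lowest mean log2 CPM (7.08).

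Levels per length spanned a 1652-fold range among the core genes. The mean over 12 libraries ran from 4.63 TPM for Rpl35a to 7644 TPM for Rplp1, with a median of 292 TPM, 15 genes above 1000 TPM and 16 below 100 TPM. The 10 highest rows held 63.7% of the TPM of all 86. Small-subunit genes had a median of 432 TPM and large-subunit genes 218 TPM, or 455 and 372 TPM when counts were divided by mRNA length. Between libraries a gene's TPM had a median coefficient of variation of 6.19% over the core genes, with a range from 1.90% for Rpl10 to 16.0% for Rpl35a.

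At the top stood Rplp1, the acidic stalk protein, with a lowest, median and highest library of 6512, 7714 and 8526 TPM. Rpl8, which lies near the site where peptide bonds form, had 6106, 6615 and 7817 TPM. Rpl4, whose loop lines the tunnel through which new proteins leave, had 5274, 5647 and 5787 TPM, and Rpl32, a protein of the large subunit, 4493, 4893 and 5199 TPM. The ranges of Rplp1 and Rpl8 over the libraries overlapped, while those of Rpl8, Rpl4 and Rpl32 did not overlap each other. Both genes were measured in the same libraries, so overlap of the ranges does not settle the order of Rplp1 and Rpl8.

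The P stalk, which recruits elongation factors to the ribosome, is built from Rplp0 and paired copies of Rplp1 and Rplp2. Rplp0 had a lowest, median and highest library of 3816, 4192 and 4808 TPM. Rplp2 lay far below both partners, at 345, 427 and 461 TPM. None of the 3 ranges overlapped another.

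The lowest rows of the list were Rpl3l at a mean of 1.55 TPM, Rps23rg1 at 1.70 TPM, Rpl35a at 4.63 TPM and Rpl29 at 8.58 TPM. Rpl3l, the muscle form of Rpl3, and Rps23rg1, a retrotransposed copy of Rps23, overlapped over the libraries. Rpl35a and Rpl29 encode constituents of every large subunit, and their libraries ran from 3.49 to 5.99 TPM and from 6.92 to 10.1 TPM.

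**Figure D2:**
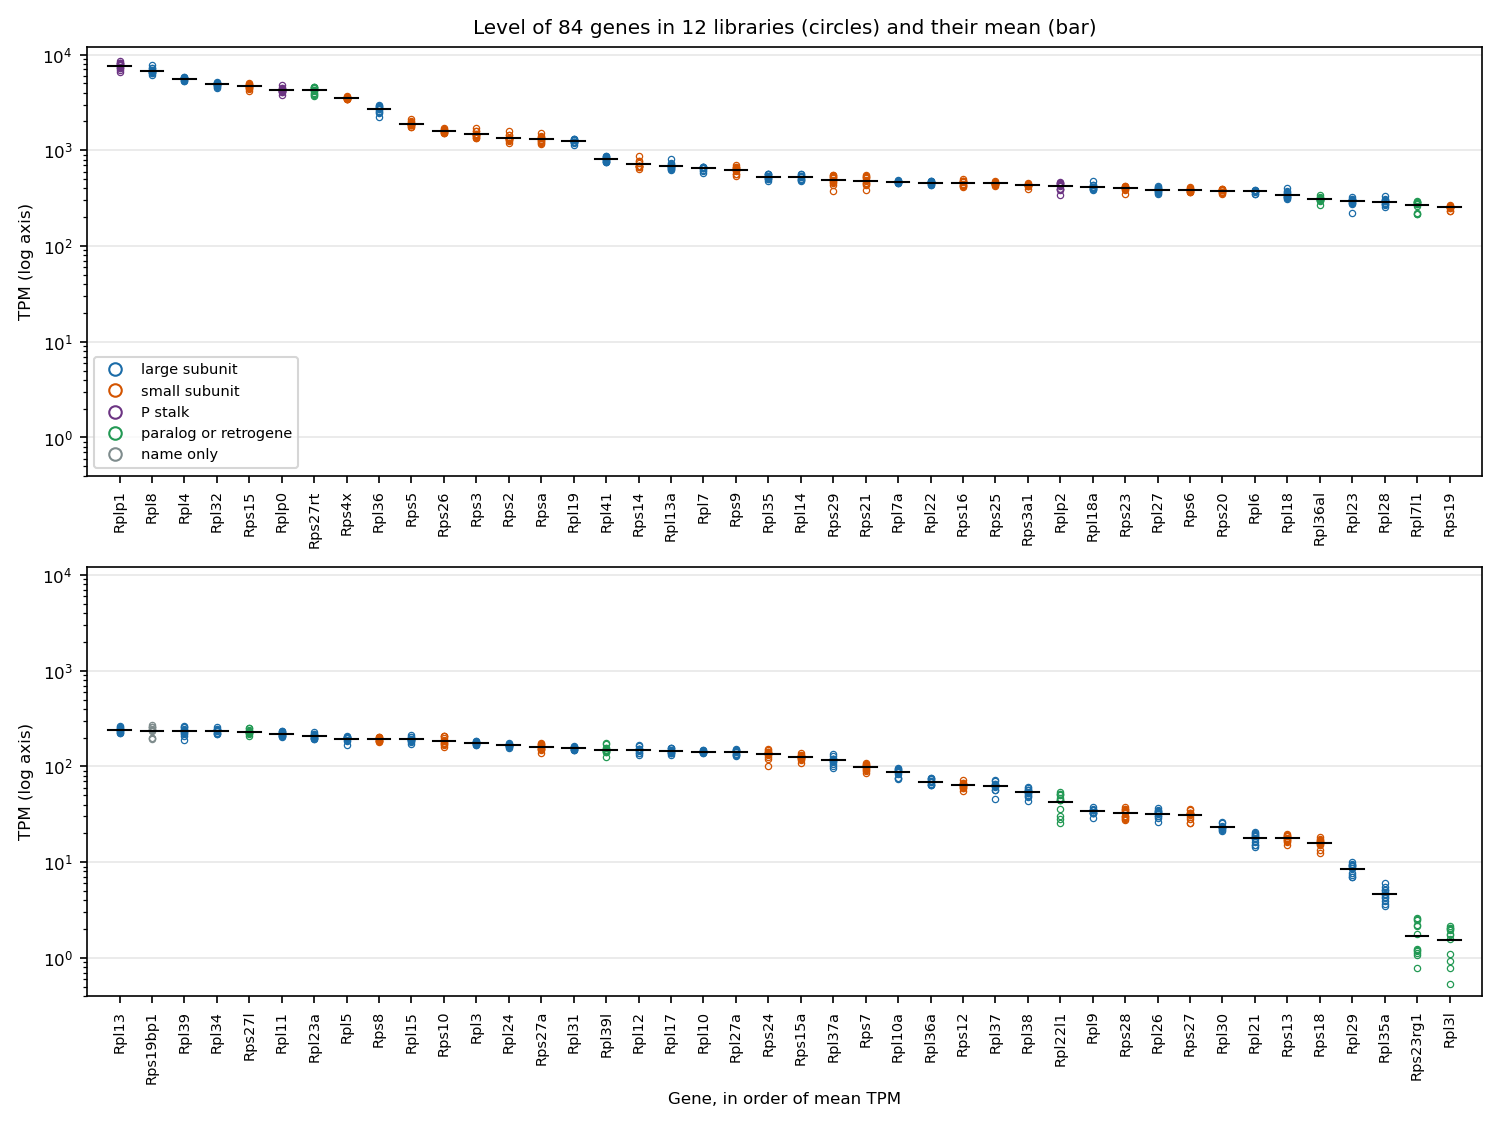
Level of 84 of the 86 genes in TPM (log axis), ordered by mean. Circles are the 12 libraries, bars the mean, and colours the class of gene, and the core genes run from Rplp1 (7644 TPM) to Rpl35a (4.63 TPM).

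Part of this order changed with the length that the deposited TPM values use and on rows that share sequence. The length by which counts were divided was 26.5 times that of Rplp1 for Rpl9, a large-subunit gene, while its principal mRNA was 1.48 times as long. With mRNA lengths of GENCODE M21 in place of the deposited ones, core genes ran from 16.6 to 6781 TPM, with a median of 445 TPM. The Spearman correlation of both sets of levels was 0.887 across the 86 genes, which share libraries and counts. By mRNA length Rplp1 had 2899 TPM and Rplp0 4160 TPM, so their order turned, and Rpl8 stood highest.

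Of the rows named as pseudogenes, 5 stood above their parents on the TPM scale. Rpl9 had 33.8 TPM and its row Rpl9-ps6 3011 TPM. Rpl10, which joins the large subunit late, had 142 TPM and Rpl10-ps3 4602 TPM. Rps18, at the head of the small subunit, had 15.9 TPM, while Rps18-ps5 had 1953 TPM and Rps18-ps6 a mean of 7719 TPM. Rpl36a had 69.5 TPM and Rpl36a-ps1 352 TPM. In mean counts the gaps were smaller, with 4811 for Rpl9 and 23108 for Rpl9-ps6, and 11714 for Rpl10 and 37976 for Rpl10-ps3. Rpl36a, at 2735 counts, was above Rpl36a-ps1, at 1695. Rps18-ps6 was listed at 0 in the mimic libraries 1 and 2, where a count of 0 allows up to 3 counts, and lay between 8396 and 10036 TPM in the other 10. Rps18 itself lay within the range of the rest in those 2 libraries, at 16.3 and 18.2 CPM against 13.7 to 19.7 CPM in the rest.

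Over the 86 genes, a median of 31.2% of the 100-base windows of the principal mRNA also occurred in the transcripts of another annotated gene. The share was 98.4% for Rps27, 87.0% for Rpl9 and 84.4% for Rpl10, and 0 for 8 genes, Rpl22 among them. Core genes below 100 TPM had a median share of 53.1% and those above 1000 TPM of 18.3%. Across the 86 genes the Spearman correlation of this share with mean TPM was -0.24, and with TPM by mRNA length -0.10. The counting of reads with several matches is not given in the sources used here, so levels of the rows with shared sequence are uncertain.

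The 8 paralogs and retrogenes gave levels from near 0 to above their parents. Rpl7l1, which acts in assembling the large subunit, had a mean of 266 TPM and its relative Rpl7 647 TPM. Rpl22l1 had 42.3 TPM and Rpl22, an RNA-binding protein of the large subunit, 458 TPM. Rpl39l, the testis form, had 150 TPM and Rpl39, at the mouth of the exit tunnel, 235 TPM. In each of these pairs the libraries did not overlap.

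Other copies lay above their parent. Rpl36al had 307 TPM and Rpl36a 69.5 TPM. Rps27l, a target of p53 in many cells, had 231 TPM, Rps27rt, an intronless copy, 4232 TPM, and Rps27 30.9 TPM. By mRNA length these gaps were smaller, with 233 TPM for Rpl36al and 200 TPM for Rpl36a, and 473, 1604 and 144 TPM for Rps27l, Rps27rt and Rps27. The other pairs kept their order by mRNA length, at 195 and 1267 TPM for Rpl7l1 and Rpl7, 170 and 615 TPM for Rpl22l1 and Rpl22, and 95.7 and 235 TPM for Rpl39l and Rpl39. Windows shared with other genes made up 89.5% of Rps27rt and 83.6% of Rpl36a, but 0 of Rps27l and Rpl39l. Rpl10l and Rps4l were not analysed here.

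The first question of the design was whether mimic or inhibitor moved these genes against control. No gene passed the test. edgeR's quasi-likelihood test, with Benjamini-Hochberg adjustment over 13014 genes, called 0 of 86 genes in mimic against control and 0% of all genes. It also called 0 of 86 in inhibitor against control and 0 of 86 in mimic against inhibitor, again 0% of all genes in both. At an unadjusted p under 0.05 the counts were 0 of 86 in each, and 71, 67 and 77 of all genes. With the replicate number as a block in edgeR, they were 2 of 86 in each, and 191, 161 and 139 of all genes. DESeq2 also called 0 of the 86, with 1, 0 and 0 below an unadjusted 0.05, where it called 3, 1 and 6 of all genes, with 122, 130 and 131 below that value. With limma on log2(TPM + 1) the calls were 0 of the 86 and 0 of all genes, with 1, 4 and 0 of the 86 and 104, 101 and 113 of all genes below an unadjusted 0.05. The 3 comparisons share libraries in pairs and are given side by side. All 86 genes passed the filter on low counts.

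Estimated differences were small for the core genes. All 77 lay within 0.25 on the log2 scale in each of the 3 comparisons, and all 77 of their 95% intervals lay within 0.5. The intervals of 45 core genes lay within 0.25 for mimic against control, 53 for inhibitor against control and 43 for mimic against inhibitor. The widest reached -0.46, for Rpl35a in inhibitor against control. Among the 86 genes the median standard error was 0.083, against 0.13 for all genes in mimic against control.

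The direction of the list differed by comparison. In mimic against control, 25 genes were higher and 61 lower, with a median difference of -0.04, where all genes had a median of -0.01 and 46.6% were higher. In inhibitor against control, 51 were higher and 35 lower, with a median of 0.02, against -0.01 and 44.0% for all genes. In mimic against inhibitor, 13 were higher and 73 lower, with a median of -0.06, against 0.00 and 51.4%. Between the 4 libraries of a group the mean log2 CPM of the 86 genes had an SD of 0.10 for control, 0.07 for mimic and 0.06 for inhibitor.

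The sign of the median in mimic against control turned when single libraries were left out. Without the control library 2 it was 0.00, with 44 genes higher and 42 lower, and without the mimic library 1 it was 0.01, with 46 higher and 40 lower. In inhibitor against control the median was 0.05 with 79 of 86 higher without control 2, and -0.01 with 37 higher without control 4. In mimic against inhibitor the median was -0.03 without mimic 1, with 59 of 86 lower. Over numbers 1 to 3 alone, the medians were -0.06, 0.00 and -0.08, and 0 of 86 genes were called in each comparison.

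In mimic against control the classes had medians of -0.03 for both subunits, -0.10 for the P stalk and -0.05 for the paralogs and retrogenes. Rplp0, Rplp1 and Rplp2 each differed between -0.11 and -0.08. In mimic against inhibitor the P stalk had a median of -0.11 and in inhibitor against control of 0.01.

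The genes with the smallest p were described by library. Rps3, which lines the mRNA entry channel, measured 1658, 2179, 1927 and 1605 CPM in control and 1531, 1717, 1729 and 1688 CPM in mimic. The groups overlapped, and control 2 was the highest library. Its difference was -0.14 ± 0.09 (log2, SE). Rps14, on the platform of the small subunit, differed by -0.17 ± 0.11 and Rpl22 by -0.10 ± 0.06, with adjusted p of 1.00 in edgeR for both. In mimic against control, 1 of the 86 genes had groups that did not overlap, against 0.684% of all genes.

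Rps27a, which is made as a fusion to ubiquitin, measured 83.7, 93.4, 88.4 and 86.2 CPM in control and 104.6, 94.3, 99.3 and 94.1 CPM in inhibitor. All inhibitor libraries were above all control libraries, by a small margin. The same held for Rpl26, and for 0.645% of all genes. Rps27a differed by 0.16 ± 0.08 (log2, SE) and Rpl26, a large-subunit protein that also binds p53 mRNA, by 0.16 ± 0.11.

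Rpl38, known for its part in translating Hox mRNAs, differed by 0.20 ± 0.11 (log2, SE) between inhibitor and control. Rps28 differed by 0.20 ± 0.11 and Rpl23a, near the exit of the tunnel, by 0.13 ± 0.07. Each had an edgeR adjusted p of 1.00, and their libraries overlapped.

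Between mimic and inhibitor, Rpl37a measured 30.4, 38.6, 39.5 and 36.3 CPM in mimic and 44.4, 39.4, 45.0 and 37.7 CPM in inhibitor. The groups overlapped, with mimic 1 the lowest library. The difference was -0.20 ± 0.10 (log2, SE), Rps27a differed by -0.15 ± 0.08, Rps13 by -0.16 ± 0.09 and Rpl22 by -0.09 ± 0.06, each with an edgeR adjusted p of 1.00. None of the 86 genes had groups that did not overlap, against 0.861% of all genes.

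**Figure D3:**
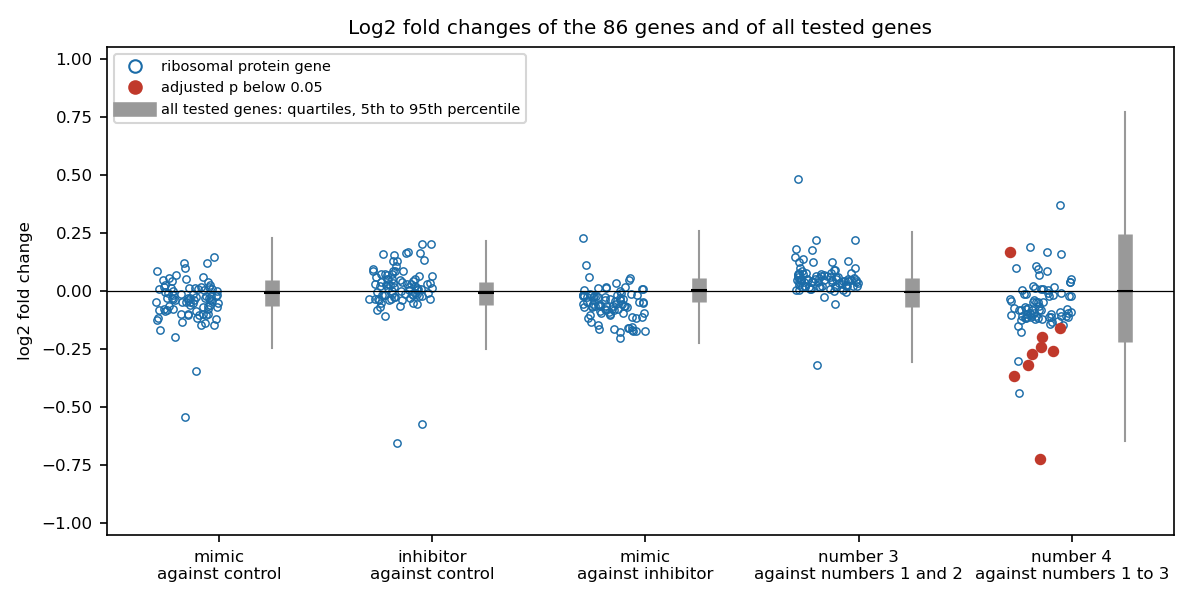
Log2 fold change of each of the 86 genes (circles, filled where the adjusted p was under 0.05) in 5 comparisons, beside the quartiles and the range from the 5th to the 95th percentile of all 13014 tested genes (grey). Filled circles appear for number 4 against numbers 1 to 3, 1 above 0 and 8 below.

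Libraries were then compared by replicate number, since number 4 stood apart over all genes. With treatment kept in the model, edgeR called 41.5% of all genes between number 4 and numbers 1 to 3. Among the 86 genes it called 9, or 10.5%, of which 1 rose and 8 fell in number 4, against 20.4% and 21.1% of all genes. In 11 of the 86 the 3 libraries numbered 4 did not overlap the other 9, against 36.9% of all genes. The median absolute difference was 0.09 (log2) for the 86 and 0.23 for all genes. The median coefficient of variation over the 12 libraries was 7.97% for the 86 and 12.5% for all genes tested.

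Their direction was mostly downward. In number 4, 66 of 86 genes were lower and 20 higher, with a median of -0.08, where the median of all genes was 0.00. The 86 genes took 6.93% ± 0.137 of TPM against 7.22% ± 0.312, 7.45% ± 0.292 and 7.51% ± 0.134 in numbers 1, 2 and 3 (SD, n = 3). Called genes were 3 of 43 in the large subunit, 3 of 31 in the small subunit, 0 of 3 in the P stalk, 2 of 8 paralogs or retrogenes, and Rps19bp1. Leaving out control 4 or mimic 4 left 5 called, all lower.

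Rpl22l1 showed the largest difference of the called genes. In control it measured 46.3, 46.5, 47.1 and 26.1 CPM in libraries 1 to 4. In mimic it measured 31.8, 40.7, 47.5 and 24.5 CPM, and in inhibitor 43.4, 41.0, 49.8 and 28.6 CPM. Number 4 was lowest in each group, and all 3 libraries lay below the other 9. It fell by 0.72 ± 0.09 (log2, SE), with an edgeR adjusted p of 9.5e-05.

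Rpl22, its relative, lay within the range of the other numbers. It measured 534.4, 523.8 and 530.1 CPM in the control, mimic and inhibitor libraries numbered 4, against 476.7 to 584.9 CPM in the other 9, and differed by -0.01 ± 0.05 (log2, SE). The counts of Rpl22l1 were 0.0468 to 0.0540 of those of Rpl22 in number 4 and 0.0667 to 0.0941 in the others. This ratio is taken within a library and does not use the scaling between libraries. The difference between the 2 genes was not tested. Of the windows of Rpl22l1, 40.6% also occurred in 1 other annotated gene, against 1.68% of those of Rpl7l1, described next.

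Rpl7l1 was likewise lower in number 4. It measured 223.5, 239.4, 230.3 and 171.9 CPM in control, 219.9, 207.0, 238.2 and 177.0 CPM in mimic and 228.1, 219.9, 230.8 and 178.2 CPM in inhibitor. Number 4 was the lowest library of every group, with no overlap. It fell by 0.36 ± 0.05 (log2, SE), with an edgeR adjusted p of 0.000179, while Rpl7 differed by 0.08 ± 0.04. The count ratio of Rpl7l1 to Rpl7 was 0.268 to 0.275 in number 4 and 0.332 to 0.401 elsewhere.

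Of the other copies, Rpl39l differed by -0.09 ± 0.07 (log2, SE), Rps27l by 0.02 ± 0.07, Rpl36al by 0.10 ± 0.05 and Rps27rt by -0.15 ± 0.07. Rpl3l, at 18 to 77 counts per library, differed by 0.37 ± 0.37. None of these 5 passed the test. The count ratio of Rpl36al to Rpl36a was 3.24 to 3.73 in number 4 and 2.85 to 3.11 elsewhere. It did not overlap and was higher in number 4, where the ratios of Rpl22l1 and Rpl7l1 were lower. The ratios of Rpl39l, Rps27l, Rps27rt and Rpl3l to their relatives overlapped between number 4 and the others. No ratio was tested.

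Rpl23, a large-subunit protein that can bind Mdm2, was the called gene that rose. It measured 141.6, 123.7, 143.1 and 167.8 CPM in control, 147.6, 154.2, 158.2 and 166.1 CPM in mimic and 152.8, 149.4, 156.4 and 162.0 CPM in inhibitor. Number 4 was highest in each group and did not overlap the rest. It rose by 0.17 ± 0.05 (log2, SE; edgeR adjusted p = 0.0266), and by 0.10 with an adjusted p of 0.268 without control 4. Rpl23 rose in all 21 alternatives but did not pass the test in 9 of them.

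The called core genes that fell did so by small amounts. Rpl10a, beside the exit site of transfer RNA, measured 150.7, 158.2 and 158.1 CPM in the libraries numbered 4 of control, mimic and inhibitor, below the 172.6 to 198.8 CPM of the others, and fell by 0.24 ± 0.05 (log2, SE; edgeR adjusted p = 0.00358). Rpl21 fell by 0.27 ± 0.07, with an adjusted p of 0.0108 in edgeR, and of 0.081 without mimic 4. Rps18 fell by 0.26 ± 0.07, with adjusted p of 0.0163, and of 0.0857 without control 4 or 0.10 without mimic 4. The 100-base windows shared with other genes made up 87.1% of Rpl10a and 57.3% of Rps18, against 16.7% of Rpl21. The counts of Rpl10a and Rps18 are thus uncertain as measures of these genes alone. The part of shared sequence in the falls was not tested.

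Rps9, an early-binding protein of the small subunit, fell by 0.20 ± 0.07 (log2, SE; edgeR adjusted p = 0.0385). It did not pass in 5 of 21 alternatives, among them the fit without control 4, at an adjusted p of 0.228. Rps19bp1 measured 57.7, 59.6 and 57.3 CPM in number 4 against 66.9 to 82.9 CPM elsewhere, and fell by 0.32 ± 0.07 with an adjusted p of 0.00542 in edgeR.

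**Figure D4:**
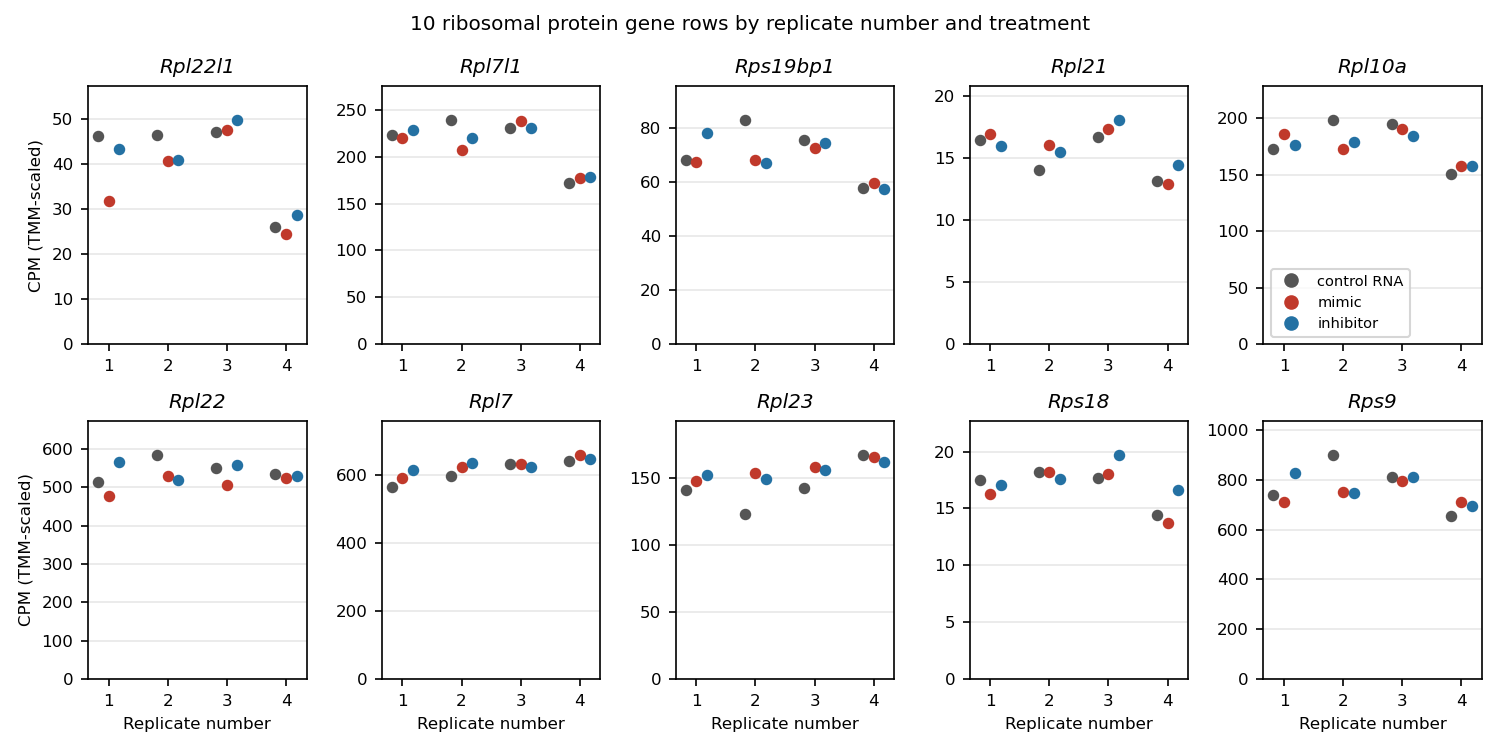
CPM (axis from 0) of 10 genes by replicate number, with 1 point for each library coloured by treatment. Rpl22l1 and Rpl7l1 were lowest in number 4 in all 3 treatments, while Rpl22 was not and Rpl7 was highest there.

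The rest of the translation machinery was read from lists of related genes, beside the 41.5% of all genes called, 20.4% higher and 21.1% lower. Of 40 ribosome biogenesis genes, 22 (55.0%) were called between number 4 and the others, 19 lower and 3 higher, with a median of -0.14. Polr1b, a subunit of RNA polymerase I, fell by 0.53 (log2) and Ebna1bp2, a large-subunit assembly factor, rose by 0.48. Of 21 genes that control ribosomal protein synthesis, 11 (52.4%) were called, 10 lower and 1 higher. Myc, which drives transcription of ribosome genes, fell by 0.99 and Mlst8, a subunit of the mTOR complexes, by 0.79.

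Mitochondrial ribosomal protein genes, which serve a separate ribosome, had 32 of 78 called (41.0%, near the 41.5% of all genes), 31 lower and 1 higher, with a median of -0.13. Mrpl49 fell by 0.69 (log2) and Mrpl9 by 0.45. Of 19 other genes with TOP mRNAs, mostly translation factors, 7 (36.8%) were called, 5 higher and 2 lower. Vim, an intermediate filament gene of that class, rose by 0.45 and Eif3e, a subunit of an initiation factor, by 0.28. Of 14 tested line markers 10 were called, among them Gap43, a growth cone protein, which rose by 0.39. Their part in the results on the 86 genes was not tested.

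Number 3 against numbers 1 and 2 gave no calls. edgeR called 0 of 86 genes and 0% of all genes, with 3 of 86 and 282 of all genes at an unadjusted p under 0.05. DESeq2 called 0 of the 86 and 141 of all genes, limma on log2(TPM + 1) called 0 of both, and without control 2 edgeR called 0 of 86 and 569 of all genes. By direction, 81 of 86 genes were higher in number 3 and 5 lower, with a median of 0.05 (log2), where all genes had a median of 0.00 and 48.6% were higher. All 31 small-subunit genes were among those higher.

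Rpl39l measured 37.7, 34.1 and 37.5 CPM in the libraries numbered 3 of control, mimic and inhibitor, above the 29.4 to 32.4 CPM of the 6 libraries numbered 1 and 2. It differed by 0.22 ± 0.07 (log2, SE), with an edgeR adjusted p of 1.00. Rpl22l1 differed by 0.22 ± 0.09, Rps28 by 0.18 ± 0.08 and Rpl9 by 0.12 ± 0.06, none of which passed. Rpl39l and Rpl22l1 were the 2 genes whose libraries did not overlap, against 1.6% of all genes.

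Some of the libraries named above also deviated by GC content or length. Each core gene was set against its own mean over the 12 libraries on the log2 scale. The deviations of a gene thus balance out over the libraries, so opposite signs in different libraries are partly set by this centring. In control 2 the median deviation was 0.12, and it was 0.18 for the 38 genes of higher GC content and 0.06 for the 39 of lower GC content. In control 4 the median was -0.10, with -0.13 for the higher and -0.07 for the lower. Across the 77 genes the Spearman correlation with GC content was 0.55 in control 2 and -0.49 in control 4, where the genes share each library and its depth. This correlation was negative in mimic 4 (-0.24) and inhibitor 4 (-0.26) as well. It was also negative in control 1 (-0.34), mimic 1 (-0.19), inhibitor 2 (-0.15) and mimic 2 (-0.11). Positive values stood in inhibitor 1 (0.41), control 3 (0.34), inhibitor 3 (0.11) and mimic 3 (0.03).

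In mimic 1 shorter mRNAs lay lower. The median deviation was -0.12, with a Spearman correlation with length of 0.31 and with -0.16 for the 39 genes with mRNAs of at most 886 bases and -0.09 for the longer 38. The correlation with length was also positive in control 1 (0.28) and control 4 (0.24). It was negative in inhibitor 3 (-0.44), inhibitor 2 (-0.40), mimic 2 (-0.34), mimic 3 (-0.26) and inhibitor 1 (-0.24). In the remaining libraries it lay between 0.02 and 0.10. In inhibitor 3, 74 of 77 core genes were above their own mean, and in control 1, 7 of 77. Length and GC content were themselves related across the core genes, with a Spearman correlation of -0.42. The part of GC content and length in the differences between groups or numbers was not tested.

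**Figure D5:**
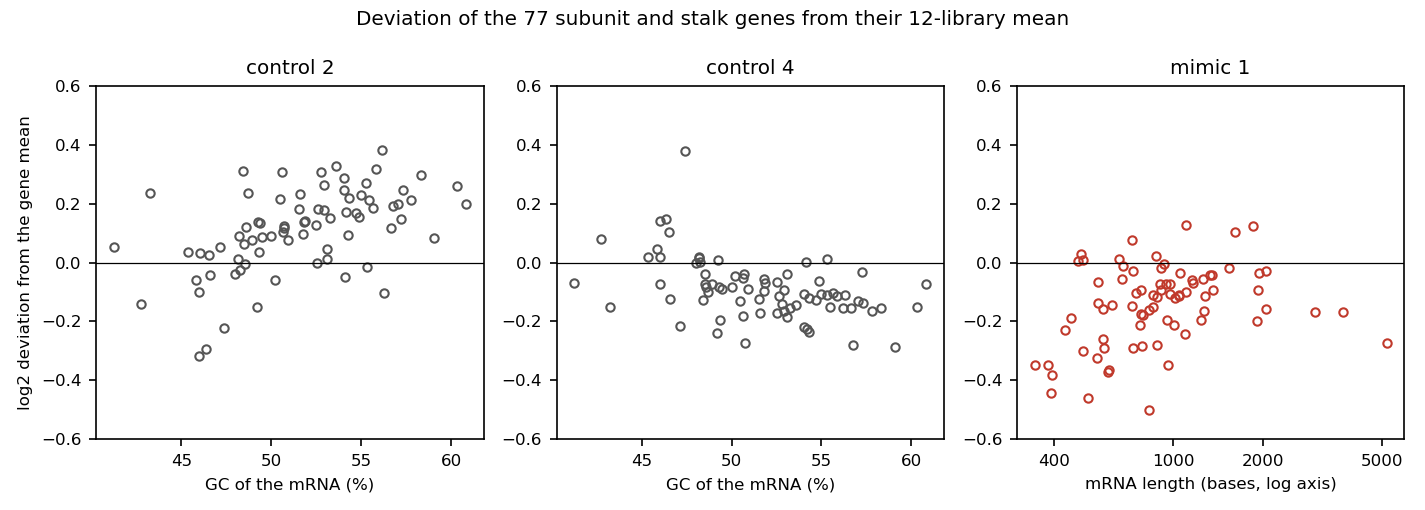
Deviation of each of the 77 core genes from its mean over the 12 libraries (log2), against the GC content of its mRNA (%) in control 2 and control 4 and against mRNA length (bases, log axis) in mimic 1. Genes of higher GC content lie higher in control 2 and lower in control 4, and short mRNAs lie lowest in mimic 1.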

How the data were processed

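The authors deposited whole-number read counts and TPM values per gene for 12 libraries, per the file headers. The submitters' processing notes list the tools STAR, fastp, StringTie, featureCounts and edgeR and the build GRCm39. Tool versions, annotation, strandedness and the treatment of reads with several matches: not given in the sources used here. Across 9160 genes, TPM equalled counts divided by a length fixed per gene, to a coefficient of variation of 0.0025%, so the tables are not independent.

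Tests of the deposited counts used edgeR 4.0.16 (R 4.3.3): TMM scaling, filterByExpr (13014 genes kept), a robust quasi-likelihood fit to all 12 libraries with group as the term for treatments, and with group and number for the contrasts of numbers. Tests were two-sided, with calls at p under 0.05 after Benjamini-Hochberg adjustment. CPM use the TMM-scaled library sizes, and ± after a log2 difference is its standard error. The steps were tested on simulated data.

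The members and lists were chosen with earlier results of these data known. Named by rule were, for treatments, the 4 genes of smallest p, for numbers, the 4 greatest and 4 least log2 differences among called genes (the 4 of smallest p where none was called), for levels, the 4 highest and 4 lowest, the P stalk and paralog pairs, and 2 genes per list. Rps18, Rpl26 and the other called or separate genes were named after their values were seen, and Rps23rg1 was classed after the table was read. A few results under these rules are not reported here. Alternatives covered scaling, filters, DESeq2 1.42.0, limma 3.58.1 on log2(TPM + 1) or log2(TPM + 0.1), and each library left out. Lengths, GC content, shared windows and 3′ UTRs came from GENCODE M21 (GRCm38), which is not the authors' build, and start sites and the microRNA from RefSeq. The principal mRNA of a gene was its coding transcript of the best annotated principal rank, and the longest where several shared that rank. It had 5179 bases for Rps15a and 3706 for Rps20, and which transcript the cells made was not examined. Intervals have a level of 95%.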

Additional observations from a re-analysis of the deposited data

Results flagged for a closer look

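In the control group, Rpl22l1 measured 26.1 CPM in library 4 and 46.3 to 47.1 CPM in the other 3, a gap of 0.961 of the group's whole range. Rps18 measured 14.4 CPM in control 4 and 17.5 to 18.2 CPM in the others, a gap of 0.83 of the range. Both exceeded the 95% critical value of Dixon's gap test for a group of 4. They were 2 of 66 groups of values tested, and chance gives about 1 in 20 such gaps. In mimic and inhibitor, library 4 was also the lowest for both genes, which is part of the difference for which they were named.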

How the results depend on the processing

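In the 3 treatment comparisons 0 of 86 genes were called under all 23 alternatives of each, which covered scaling, filters, DESeq2, limma and every library left out. Between number 4 and numbers 1 to 3, limma called 20 genes on log2(TPM + 1), 20 on log2(TPM + 0.1) and 16 without a filter, all lower, against 1 higher and 8 lower in edgeR. With each library left out the count ran from 5 to 12, and it was 5 without control 4 and 5 without mimic 4. Rpl22l1, Rpl7l1, Rps19bp1 and Rpl10a passed the test in every alternative, with largest adjusted p of 0.00142, 0.00238, 0.0408 and 0.0351 (edgeR, DESeq2 or limma). Median core level moved from 292 to 445 TPM by mRNA length, an alternative chosen after seeing the data, and to 383 TPM with pseudogene rows added to their parents.

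The replicate number was added as a block: 0 of 86 genes were called in each treatment comparison, with medians of -0.04, 0.02 and -0.06, and over numbers 1 to 3 alone with the block, an alternative chosen after seeing the data, medians of -0.06, 0.01 and -0.08. Deviations of same-numbered libraries correlated between -0.07 and 0.53 over all genes. In each pair of groups the libraries numbered 4 correlated best with each other, at 0.48, 0.53 and 0.44. Not every library of the other numbers correlated best with its own number, so the numbers were not taken to pair the samples. The shift shared by number 4 therefore stayed in the replicate spread of the main treatment fit, and with it in the standard errors and intervals. Rpl3l had 18 to 77 counts per library and a standard error of 0.37 (log2) for number 4.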
